A study of Mus musculus with 17 samples.

Results

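The mouse mitochondrial genome (mtDNA) carries 22 tRNA genes, and 10 of them are transcribed from the heavy-strand promoter and lie in the region of the mRNA genes, between *mt-Nd1* and *mt-Nd5*. These 10 were taken from the 56748 genes of the count table as the mitochondrial tRNA genes on the plus strand that start between positions 3700 and 12000 of the mtDNA. In map order they are *mt-Ti* (isoleucine), *mt-Tm* (methionine), *mt-Tw* (tryptophan), *mt-Td* (aspartic acid), *mt-Tk* (lysine), *mt-Tg* (glycine), *mt-Tr* (arginine), *mt-Th* (histidine), *mt-Ts2* (serine) and *mt-Tl2* (leucine). Together they read 1766 of the 3790 codons (46.6%) in the 13 mtDNA-encoded mRNAs. Their levels were compared in whole hearts of mice aged 12 to 16 months, 8 of them controls (Ctrl) and 9 *Polg* hMut mice (hMut). Each heart gave 1 library. The hMut mice were homozygous for an inducible *Polg* allele and carried 1 copy of a cre transgene (*Polg* iMut/iMut; +/Ckmm-cre). Cre removes a wild-type cassette, after which the heart muscle cells express a mtDNA polymerase that lacks proofreading. Cre expression follows the muscle creatine kinase promoter, so the other cell types of the heart keep the wild-type cassette. For the controls the labels give the genotype only as Ctrl, and sex is not given for single mice. Replicate numbers are those of the library names.

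Both strands of mtDNA are transcribed as long RNAs that span almost the whole genome, and the tRNAs punctuate them between the mRNAs. RNase P cuts each tRNA at its 5′ end and the RNase Z enzyme ELAC2 cuts it at its 3′ end, which also frees the mRNAs on both sides. The CCA end is then added by TRNT1, bases are modified, and a synthetase loads the amino acid. The libraries were made from polyadenylated RNA, and a mature tRNA is short and has no poly(A) tail, so a tRNA gene's count in these data is not the abundance of the mature tRNA. Reads on these genes can also come from transcripts that still hold the tRNA sequence, and the counts do not separate the sources.

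The sequences of 5 of the genes are given because the results turn on them. *mt-Ti* and *mt-Tm* passed the test, *mt-Tw* and *mt-Tl2* had the widest range over the hMut hearts among the 6 better counted genes, and *mt-Tr* had a fold change of the opposite sign. Each is the plus strand of the mtDNA in GRCm39, 5′ to 3′, with the anticodon in capitals. *mt-Ti* lies at chrM:3706-3774, *mt-Tm* at chrM:3845-3913, *mt-Tw* at chrM:4950-5016, *mt-Tr* at chrM:9808-9875 and *mt-Tl2* at chrM:11671-11741.
mt-Ti: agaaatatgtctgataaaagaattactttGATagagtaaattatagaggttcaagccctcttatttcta
mt-Tm: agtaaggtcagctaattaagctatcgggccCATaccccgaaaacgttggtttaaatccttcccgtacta
mt-Tw: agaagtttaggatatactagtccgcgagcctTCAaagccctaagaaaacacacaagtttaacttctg
mt-Tr: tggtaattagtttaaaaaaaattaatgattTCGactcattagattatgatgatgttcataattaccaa
mt-Tl2: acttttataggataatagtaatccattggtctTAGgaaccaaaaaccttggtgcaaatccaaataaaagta
The 10 genes are 59 to 71 bases long and 17.1% to 44.9% GC, with *mt-Td* the lowest and *mt-Tm* the highest. *mt-Tm* reads the start codon as well as internal methionine codons, and *mt-Tl2* reads the largest share of codons among the 10 (11.7%). *mt-Ts2*, the shortest, is known for a tRNA that lacks the D arm.

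The genes are packed against their neighbours. The start of *mt-Ti* shares 2 bases with the end of *mt-Nd1*, and its 3′ end shares 3 bases with *mt-Tq* of the opposite strand. *mt-Tw* shares 2 bases with the end of *mt-Nd2*, and *mt-Ts2* and *mt-Tl2* share 1 base. The sources used here do not say whether featureCounts was run with strand, so counts of *mt-Ti* and *mt-Tq* are uncertain where they overlap. For the same reason, the count of any tRNA gene here may include RNA of the opposite strand. The stretches between the flanking heavy-strand mRNAs differ in width. They are 206 bases around *mt-Ti* and *mt-Tm*, 376 bases around *mt-Tw* and 197 bases around *mt-Th*, *mt-Ts2* and *mt-Tl2*, but 140 bases around *mt-Td* and 68 to 70 bases around *mt-Tk*, *mt-Tg* and *mt-Tr*, which each fill their stretch almost alone.

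In the Ctrl hearts the 10 genes fell into 2 sets by level per length. On the scale of CPM (counts scaled to the size of the library) per kilobase of gene, *mt-Tw* (304 ± 73.3, SD, n = 8) and *mt-Tm* (279 ± 75.7) were the highest and overlapped each other. *mt-Tl2* (90.9 ± 38.6), *mt-Th* (84.6 ± 34.3), *mt-Ti* (77.8 ± 26.4) and *mt-Ts2* (62.3 ± 30.0) followed, below the range of *mt-Tm* and overlapping among themselves. The remaining 4 lay below every Ctrl value of these 6, with 3.17 ± 1.58 for *mt-Tr*, 2.07 ± 2.85 for *mt-Td*, 1.08 ± 0.557 for *mt-Tk* and 0.462 ± 0.683 for *mt-Tg*. The mRNAs beside the 10 genes stood higher on the same scale, for example 26970 for *mt-Nd1* and 20230 for *mt-Nd2*, which flank *mt-Ti* and *mt-Tm*. Of the mRNAs beside the 4 low genes, *mt-Nd3* had 468, *mt-Atp8* 723, *mt-Nd4l* 3015, *mt-Co3* 3610, *mt-Co2* 5068 and *mt-Co1* 72840.

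All 10 genes have some match in the nuclear genome, and the 4 low genes are those that lie in a match of at least 98% identity over at least 300 bases. A stretch of chromosome 1, chr1:24650616-24655269 in GRCm39, matches the mtDNA from position 6390 to 11042 with 99.9% identity over 4654 aligned bases. It holds *mt-Td*, *mt-Tk*, *mt-Tg* and *mt-Tr* together with *mt-Co2*, *mt-Atp8*, *mt-Atp6*, *mt-Co3*, *mt-Nd3* and *mt-Nd4l*. The copy differs from the reference mtDNA by A6393T, T9461C and 1 added A inside *mt-Tr*, where the first letter is the mtDNA base and positions are counted from 1 at the start of the mtDNA. The 7 pseudogenes annotated in the copy had between 3958 and 61296 counts per library, so reads with this sequence were counted on the nuclear side too. The 4 genes had at most 35 counts in any library and made up 0.76% of the counts of all 10 genes in Ctrl hearts and 2.5% in hMut hearts. Their counts are therefore uncertain, and the narrow gap between mRNAs and the nuclear copy cannot be told apart for *mt-Tk*, *mt-Tg* and *mt-Tr*. Outside this stretch, an exact copy of *mt-Tw*, of *mt-Td* and of *mt-Th* occurs on chromosome 2, and the best match of *mt-Tw* has 97.9% identity over 383 bases. No exact copy was found in the nuclear genome for *mt-Ti*, *mt-Tm*, *mt-Ts2* or *mt-Tl2*.

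**Figure D1:**
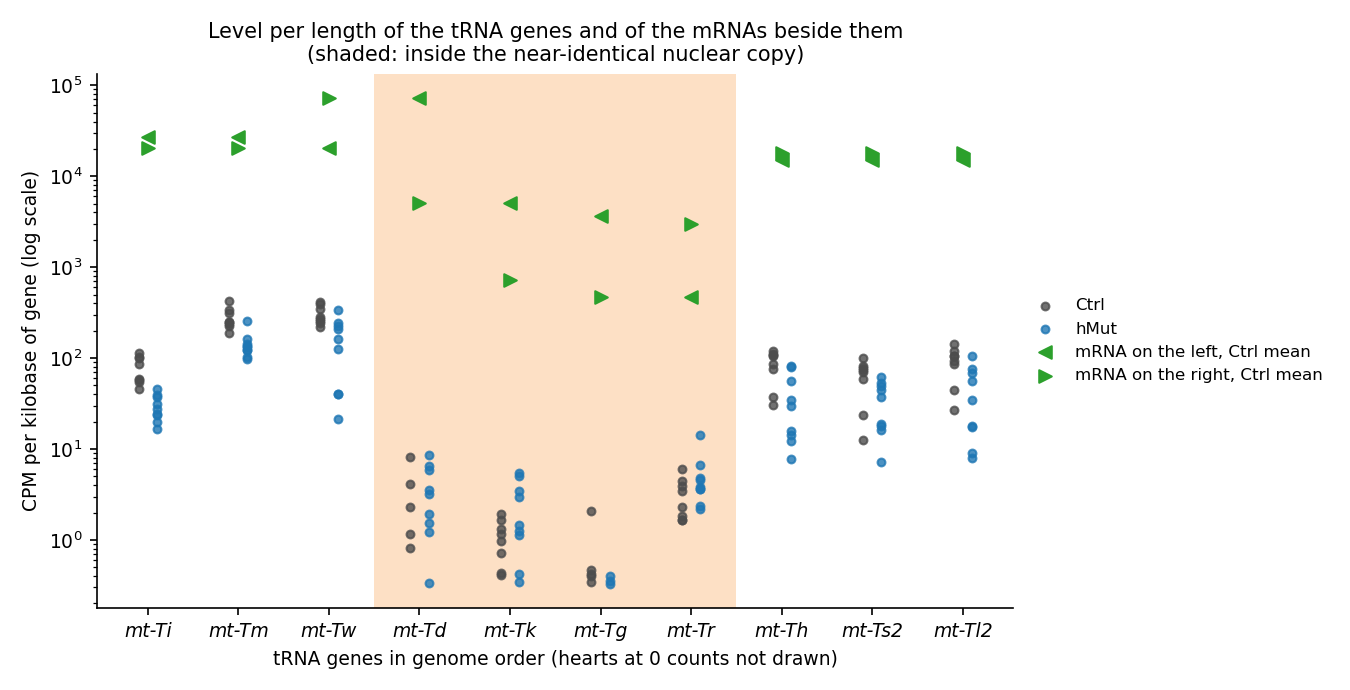
Level of the 10 tRNA genes in CPM per kilobase of gene (vertical axis, log scale) in map order, with 1 point per heart in grey (Ctrl) and blue (hMut) and the Ctrl mean of the flanking heavy-strand mRNAs as triangles. In Ctrl hearts the 4 genes inside the near-identical nuclear copy (shaded) lie below the other 6, whereas in hMut hearts the highest points of *mt-Tr* (14.2) and *mt-Td* (8.62) lie above the lowest of *mt-Ts2* (7.23).

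Total counts per library were 32915159 to 46486964, and mtDNA-encoded genes took 23.5% to 30.9% of them in Ctrl hearts and 15.9% to 23.0% in hMut hearts. *Polg* itself, the targeted gene, had a median of 32.0 CPM in Ctrl hearts (27.1 to 47.2) and 59.6 CPM in hMut hearts (47.1 to 65.1), and 8 of 9 hMut hearts were above every Ctrl heart (log2 fold change 0.74, adjusted p = 0.000448, edgeR's quasi-likelihood test). The counts do not separate the wild-type from the mutant *Polg* message. The heart label was met by the ventricular cardiomyocyte markers, whose summed level was 45500 to 54600 CPM in Ctrl and 34400 to 53100 CPM in hMut hearts. Of these 10 markers 0 passed in edgeR, 7 were lower at an unadjusted p under 0.05, and 4 passed as lower in DESeq2 and 6 in limma-voom. Summed macrophage markers were 193 to 288 CPM in Ctrl and 243 to 1020 CPM in hMut hearts, and of 5 markers 0 passed in edgeR, DESeq2 or limma-voom and 4 were higher at an unadjusted p under 0.05. Fibroblast markers summed to 816 to 984 and 827 to 1970 CPM, and of 6 markers 0 passed in edgeR, 6 were higher unadjusted and 1 passed in DESeq2 and in limma-voom. Endothelial markers summed to 677 to 827 and 737 to 1010 CPM, with 1 of 5 higher in edgeR and 3 in limma-voom, and skeletal muscle markers to 1010 to 1450 and 1150 to 1980 CPM, with 1 of 4 tested higher in edgeR and *Myh1* and *Myh4* at or under 3 counts. The share of all genes tested at an unadjusted p under 0.05 was not counted, so these unadjusted marker counts have no background beside them. The part of these markers in the tRNA results was not tested. In whole hearts, fewer cardiomyocytes and less mitochondrial RNA per cardiomyocyte cannot be told apart.

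In hMut hearts *mt-Ti* and *mt-Tm* fell, and 0 of the 7 genes tested rose in edgeR, DESeq2 or limma-voom or at an unadjusted p under 0.05. At that unadjusted threshold 6 of the 7 were lower. The share of all genes tested under it was not counted, here or for the gene lists below. Summed over the 10 genes, the level was 37.3 to 81.0 CPM in Ctrl hearts (median 64.1) and 12.2 to 60.8 CPM in hMut hearts (median 32.2). After the filter on low counts 7 of the 10 could be tested, 2 passed as lower and 5 did not pass, while *mt-Td*, *mt-Tk* and *mt-Tg* were too low to test. Over all 16195 genes tested, 1.14% passed as lower in hMut and 3.48% as higher. The median log2 fold change was -0.98 over the 7 tRNA genes, 0.002 over all genes tested and -0.69 over the 12 heavy-strand mRNAs, of which 8 passed as lower.

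*mt-Ti*, which decodes the isoleucine codons, ran from 3.19 to 7.90 CPM in Ctrl hearts (median 5.03) and from 1.14 to 3.14 CPM in hMut hearts (median 1.92). Every hMut heart lay below every Ctrl heart, which holds for 10 of the genes tested (0.0617%). The mtDNA genes *mt-Nd2*, *mt-Nd4*, *mt-Nd5*, *mt-Cytb* and *mt-Te* are also among them. The log2 fold change was -1.40 (SE 0.22, adjusted p = 0.00116, edgeR's quasi-likelihood test). The mRNAs on both sides had smaller fold changes, and the difference from each was not tested gene by gene. *mt-Nd1*, a complex I subunit, had a log2 fold change of -0.35 (SE 0.14, adjusted p = 0.138, edgeR), and *mt-Nd2*, another complex I subunit, fell by 0.77 (SE 0.12, adjusted p = 0.000883, edgeR). *mt-Tq* of the opposite strand, which overlaps *mt-Ti*, fell by 1.12 on the log2 scale (SE 0.23, adjusted p = 0.00843, edgeR).

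*mt-Tm* ends directly at the first base of *mt-Nd2*. Its level was 13.1 to 29.5 CPM in Ctrl hearts (median 17.4) and 6.66 to 17.5 CPM in hMut hearts (median 9.09). All hMut hearts but replicate 2 (17.5 CPM) lay below every Ctrl heart. The log2 fold change was -0.98 (SE 0.18, adjusted p = 0.00408, edgeR's quasi-likelihood test). The spread between hearts was alike in the 2 groups, with a coefficient of variation of 27.1% in Ctrl and 32.8% in hMut, as it was for *mt-Ti* (34.0% and 32.5%).

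*mt-Tw*, which reads the tryptophan codons and lies between *mt-Nd2* and *mt-Co1*, did not pass the test and was spread widely among the hMut hearts. It ran from 14.8 to 27.9 CPM in Ctrl hearts (median 18.7) and from 1.43 to 22.7 CPM in hMut hearts (median 10.8). The lowest hMut hearts had 1.43 (replicate 3), 2.72 (replicate 4) and 2.73 CPM (replicate 5), whereas replicates 1, 2 and 9 lay inside the Ctrl range. The log2 fold change was -0.96 (SE 0.40, 95% interval -1.75 to -0.17, adjusted p = 0.147, edgeR). The coefficient of variation was 24.1% in Ctrl and 69.5% in hMut hearts, a difference that was not tested.

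*mt-Th*, *mt-Ts2* and *mt-Tl2* lie in a row, with at most 1 spare base, between *mt-Nd4* and *mt-Nd5*, 2 complex I genes. *mt-Th* ran from 2.03 to 8.07 CPM in Ctrl (median 6.46) and from 0.521 to 5.55 CPM in hMut hearts (median 1.99). *mt-Ts2* ran from 0.736 to 5.95 CPM (median 4.23) and from 0.426 to 3.62 CPM (median 2.22). *mt-Tl2* ran from 1.91 to 10.2 CPM (median 7.08) and from 0.569 to 7.48 CPM (median 2.45).
The groups overlapped for all of them, since Ctrl replicates 1 and 2 were the lowest Ctrl hearts for each of the 3 genes and hMut replicates 1, 2 and 8 were within the range of the other Ctrl hearts for at least 1 of them. In *mt-Th* 5 of 9 hMut hearts lay below every Ctrl heart, in *mt-Tl2* 4 and in *mt-Ts2* 1. The log2 fold changes were -1.20 for *mt-Th* (95% interval -2.04 to -0.36, adjusted p = 0.103), -0.88 for *mt-Ts2* (-1.67 to -0.09, adjusted p = 0.181) and -1.06 for *mt-Tl2* (-1.95 to -0.17, adjusted p = 0.156), all from edgeR. *mt-Th* passed when hMut replicate 1 was left out (-1.45, adjusted p = 0.0474, edgeR) or hMut replicate 2 (-1.43, adjusted p = 0.0416, edgeR). With limma-voom, run with a quality weight per library, *mt-Tw* (-1.93, adjusted p = 0.00424), *mt-Th* (-1.63, adjusted p = 0.0165) and *mt-Tl2* (-1.62, adjusted p = 0.0232) passed as well.

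**Figure D2:**
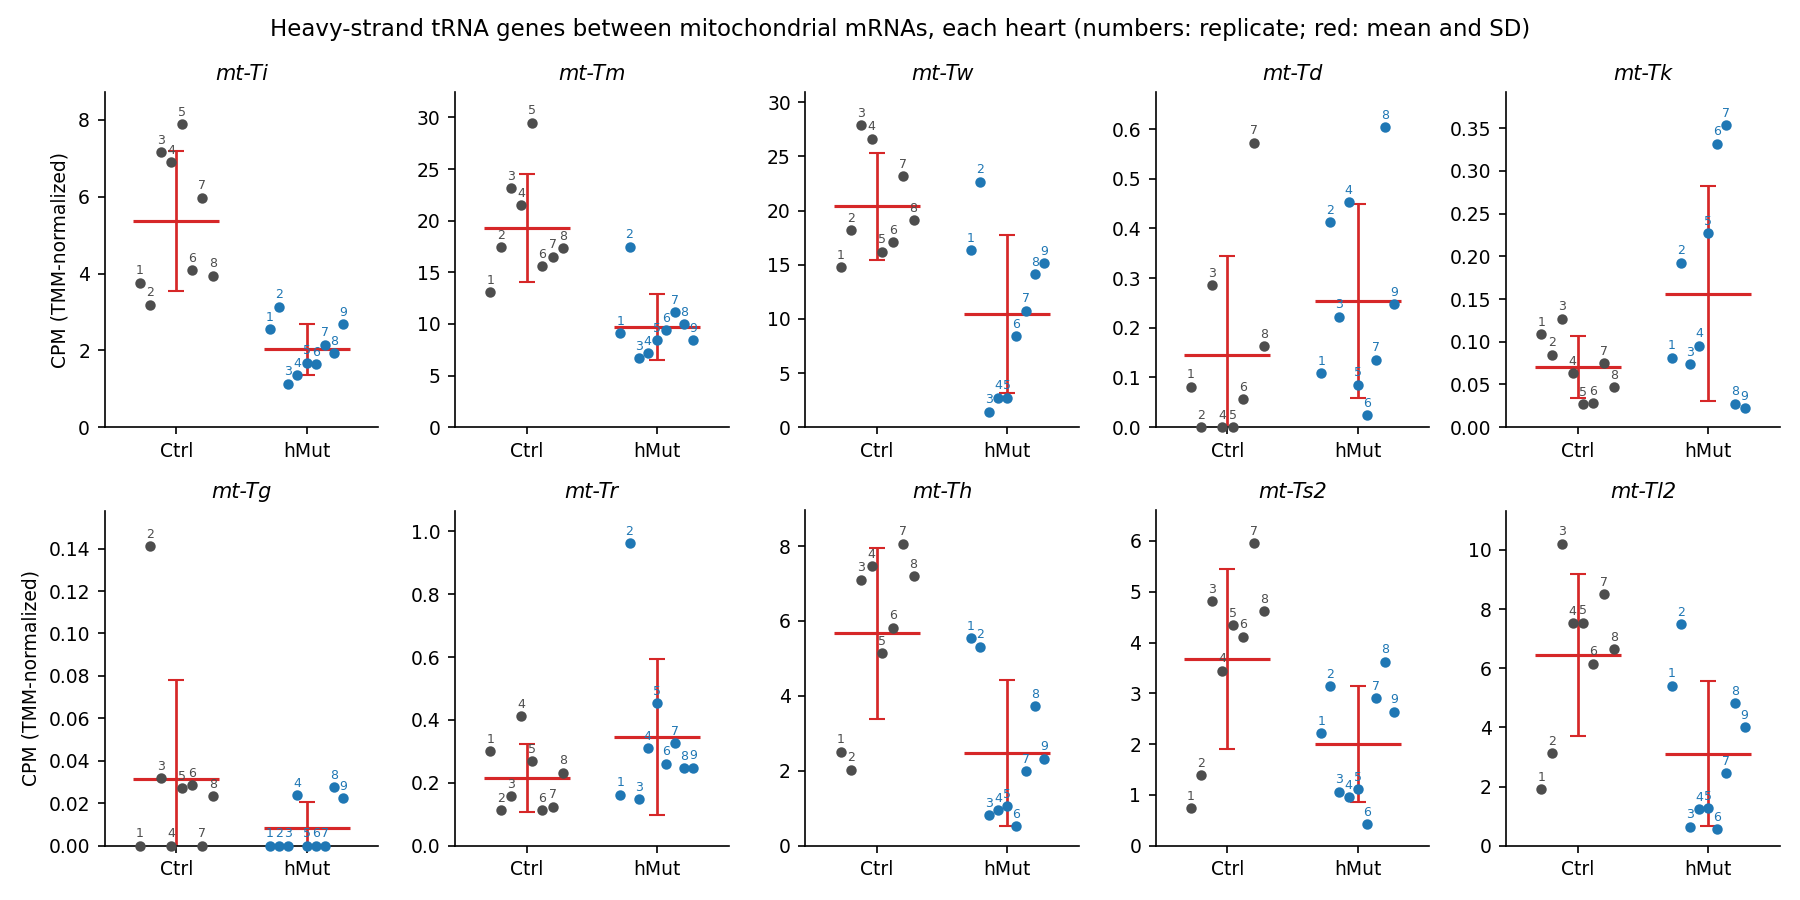
CPM after TMM normalization (vertical axes from 0, scaled per gene) of each of the 10 tRNA genes in 8 Ctrl (grey) and 9 hMut (blue) hearts. Small numbers give the replicate and red bars the mean and SD. In *mt-Ti* all 9 hMut hearts lie below the Ctrl hearts, and in *mt-Tw*, *mt-Th* and *mt-Tl2* the hMut hearts spread from near 0 to Ctrl levels.

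Of the 4 genes inside the nuclear copy, *mt-Tr* alone could be tested, and it did not pass. This gene, which reads the CGN arginine codons, had 4 to 13 counts per library in Ctrl (median 0.195 CPM) and 6 to 35 in hMut hearts (median 0.261 CPM). The log2 fold change was 0.68 (95% interval -0.06 to 1.41, adjusted p = 0.254, edgeR), and hMut replicate 2 was the highest heart with 35 counts. *mt-Td* had 0 to 23 counts in Ctrl and 1 to 22 in hMut hearts, and *mt-Tk* 1 to 4 and 1 to 14. *mt-Tg* had 0 to 5 counts in Ctrl and 0 or 1 in hMut hearts. Taking 3 counts as the floor, below which a gene is treated as not detectable, *mt-Td* exceeded it in 10 of 17 libraries, *mt-Tk* in 7, *mt-Tg* in 1 and *mt-Tr* in 17. The filter on low counts removed *mt-Td*, *mt-Tk* and *mt-Tg*, so their changes were not tested in the main comparison.

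**Figure D3:**
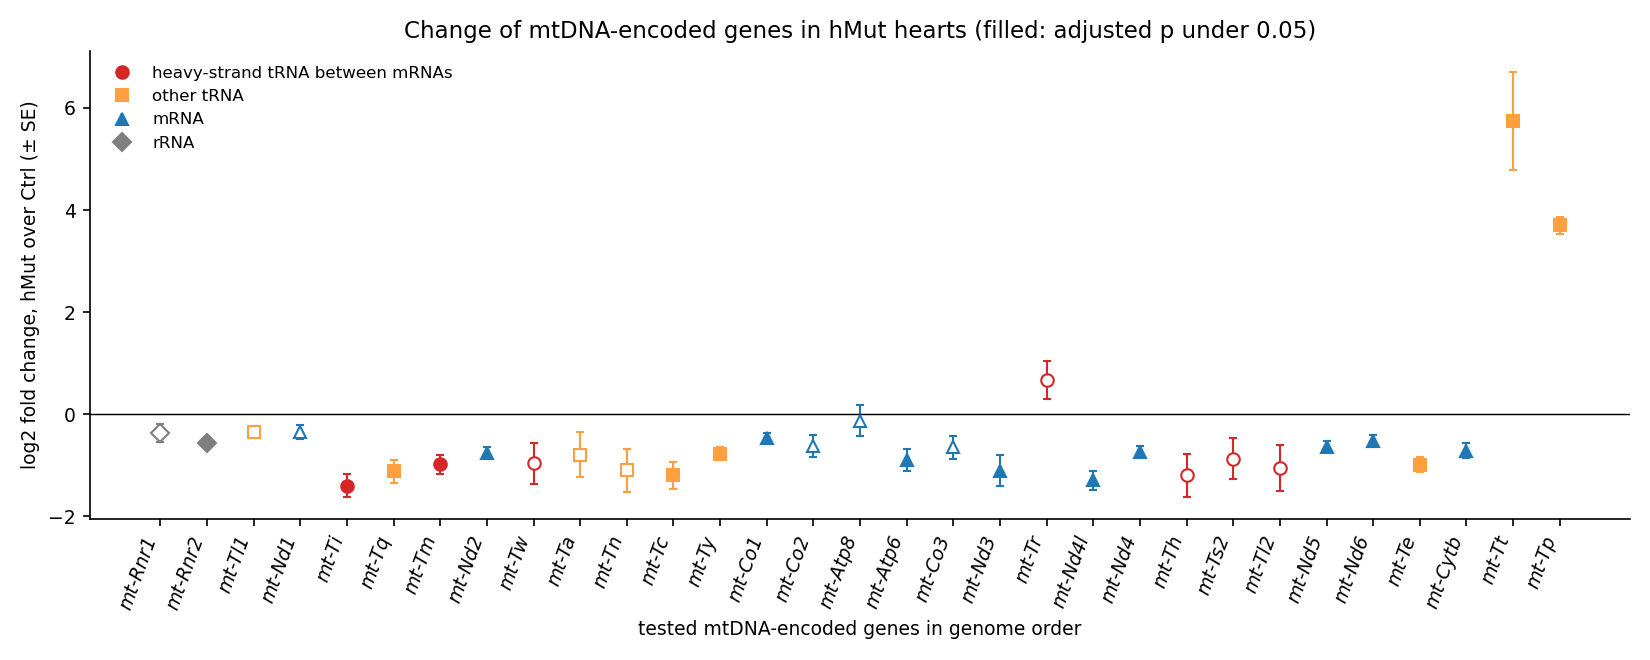
Log2 fold change of hMut over Ctrl hearts (vertical axis, bars are SE) for the tested mtDNA-encoded genes in genome order. Filled symbols passed at an adjusted p of 0.05 in edgeR. Of the heavy-strand tRNAs between mRNAs (red circles), *mt-Ti* and *mt-Tm* are filled and *mt-Tr* alone lies above 0.

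Because the heavy-strand mRNAs were lower too, the tRNA counts were also compared with the summed counts of the 12 heavy-strand mRNAs of the same heart. This sum was 22.2% to 29.0% of all counts in Ctrl and 14.9% to 21.5% in hMut hearts, so with it in place of the library total the median of all genes tested lay at 0.59 and 83.5% passed as higher, while 0.0864% passed as lower. On this mRNA-scaled CPM, *mt-Ti* had 12.3 to 34.9 in Ctrl (median 19.6) and 6.82 to 15.7 in hMut hearts (median 11.5), and the groups overlapped. It passed as lower (log2 fold change -0.85, SE 0.21, adjusted p = 0.00109, edgeR). *mt-Tm* had 50.5 to 130 in Ctrl (median 66.5) and 38.6 to 77.8 in hMut hearts (median 50.8), with a log2 fold change of -0.44 (SE 0.17, adjusted p = 0.0235, edgeR). The *mt-Tm* call rested on 1 library and on the mRNAs chosen. Without Ctrl replicate 5, the highest Ctrl heart, it was -0.27 (adjusted p = 0.0803, edgeR), with the geometric mean of the mRNAs it was -0.25 (adjusted p = 0.229) and with only the mRNAs outside the nuclear copy it was -0.37 (adjusted p = 0.0693).

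*mt-Tr* was higher on this scale (1.20, SE 0.35, adjusted p = 0.00385, edgeR) in a comparison where most genes were. It could not be tested under the filter on low counts, and so was not called, without hMut replicate 2, 4, 5, 6, 7 or 9, without hMut replicates 6 and 9 together or with the replicate block. The other tested genes did not pass, with -0.42 for *mt-Tw* (adjusted p = 0.271), -0.70 for *mt-Th* (0.0882), -0.36 for *mt-Ts2* (0.346) and -0.57 for *mt-Tl2* (0.187), all from edgeR. *mt-Th* passed on this scale without Ctrl replicate 2 (-0.83, adjusted p = 0.0458), hMut replicate 1 (-0.96, adjusted p = 0.0184) or hMut replicate 2 (-0.85, adjusted p = 0.0441). Set against single neighbours in CPM per kilobase, *mt-Ti* was 0.180% to 0.524% of *mt-Nd1* in Ctrl hearts and 0.0796% to 0.227% in hMut hearts. On this ratio 8 of 9 hMut hearts lay below every Ctrl heart. Against *mt-Nd2*, *mt-Ti* was at 0.228% to 0.653% and 0.152% to 0.355%, with 4 of 9 below. On the same scale *mt-Tw* was 1.07% to 1.89% of *mt-Nd2* in Ctrl and 0.197% to 2.07% in hMut hearts. Here 3 hMut hearts lay below every Ctrl heart and 3 above. Against *mt-Co1*, *mt-Tw* was at 0.304% to 0.529% and 0.0442% to 0.534%, with 5 hMut hearts below every Ctrl heart and 1 above.

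**Figure D4:**
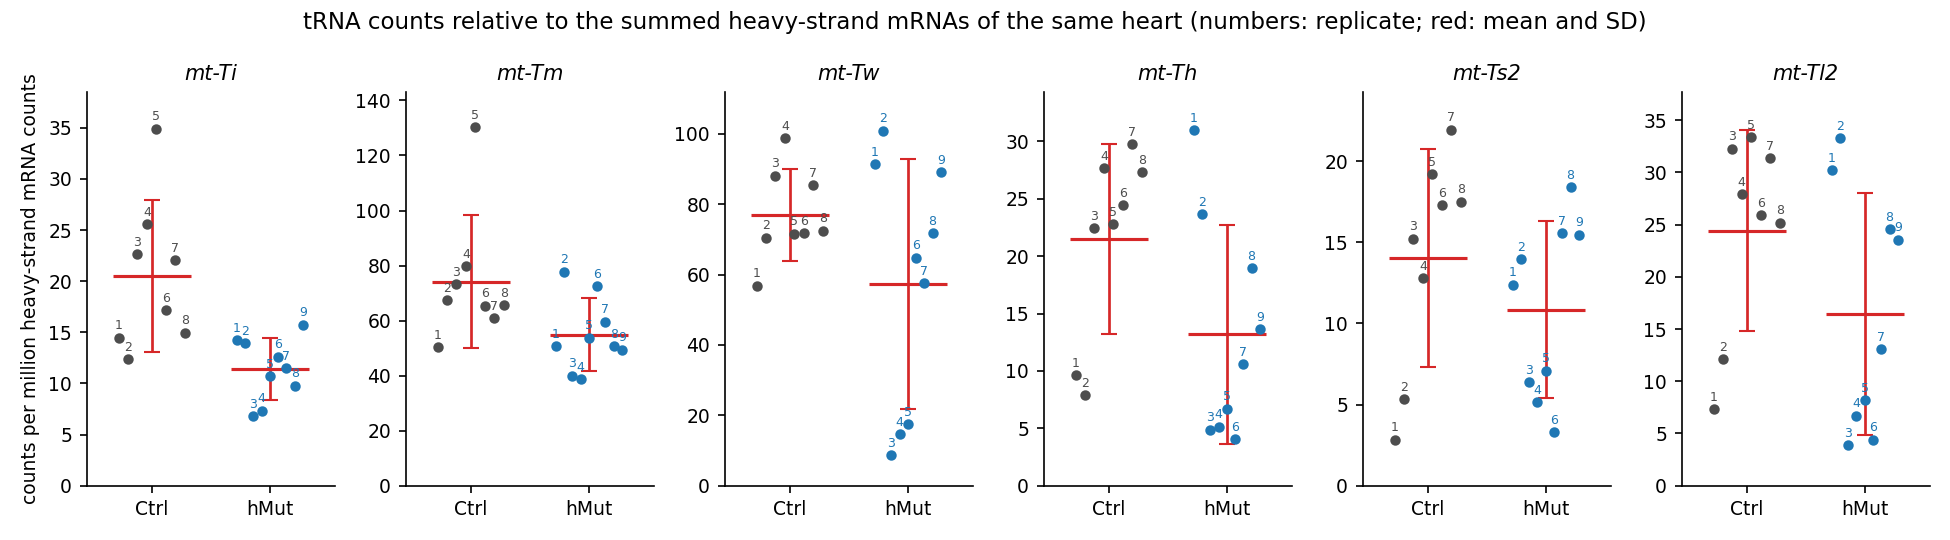
CPM of 6 tRNA genes with the heavy-strand mRNA counts of the same heart as the total (vertical axes from 0, scaled per gene) in Ctrl (grey) and hMut (blue) hearts. Numbers give the replicate and red bars the mean and SD. In *mt-Tw*, hMut replicates 3, 4 and 5 lie below every Ctrl heart, the lowest at 8.60, and the next hMut heart is at 57.6.

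The same hMut hearts were the lowest for several of the genes. For 5 of the 10 genes, *mt-Ti*, *mt-Tw*, *mt-Th*, *mt-Ts2* and *mt-Tl2*, the 4 lowest hMut hearts were replicates 3, 4, 5 and 6. For *mt-Tm* they were 3, 4, 5 and 9. In *mt-Th* replicates 3 to 6 had 0.814, 0.955, 1.05 and 0.521 CPM and the next heart 1.99 CPM. In *mt-Tl2* they had 0.642, 1.24, 1.28 and 0.569 CPM and the next heart 2.45 CPM. The highest over the lowest hMut heart was 15.8 in *mt-Tw*, 13.2 in *mt-Tl2*, 10.6 in *mt-Th* and 8.49 in *mt-Ts2*, against 2.76 in *mt-Ti* and 2.62 in *mt-Tm*. Over the Ctrl hearts it was 1.89 in *mt-Tw*, 5.35 in *mt-Tl2*, 3.97 in *mt-Th*, 8.09 in *mt-Ts2*, 2.47 in *mt-Ti* and 2.25 in *mt-Tm*. Among the hMut hearts it was 2.63 for *mt-Nd1*, close to *mt-Ti* and *mt-Tm*, 2.17 for *mt-Nd2*, 1.38 for *mt-Co1*, 1.95 for *mt-Nd4* and 1.61 for *mt-Nd5*. Replicate 6 was the lowest hMut heart for *mt-Nd1* (9990 CPM) and *mt-Nd2* (7800 CPM), while replicates 3, 4 and 5 lay close to the other hMut hearts there, for example 11300, 12700 and 12100 CPM in *mt-Nd2*.

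The light-strand tRNA genes beside *mt-Tw* shared this order. *mt-Ta*, *mt-Tn* and *mt-Tc*, which follow *mt-Tw* on the opposite strand, also had replicates 3 to 6 as their 4 lowest hMut hearts. *mt-Tn* was 11.7 to 29.3 CPM in these 4 and 64.5 to 140.0 CPM in the other hMut hearts, and *mt-Tc* was 38.9 to 57.8 CPM and 86.4 to 176 CPM. *mt-Ty*, the next gene of the same cluster, did not have these 4 as its lowest and varied 1.65-fold from the lowest to the highest hMut heart. Outside the tRNAs, *mt-Nd3*, the mRNA between *mt-Tg* and *mt-Tr*, and *mt-Rnr2* had replicates 3 to 6 as their lowest hMut hearts too. Over the 17 hearts, with each group's mean removed, the genes whose log2 CPM was most like that of the 10 genes summed were *mt-Tc* (Pearson's r = 0.949), *mt-Tn* (0.939) and *mt-Ta* (0.930), followed by *Zscan12* (0.768) and *Gm10709* (0.740). Without hMut replicates 3 and 4, the hearts farthest from the median, r was 0.928, 0.902, 0.886, 0.655 and 0.800. These values share the libraries and their depth, and for the tRNAs the same mtDNA molecules, and describe likeness only. With the strand setting unknown, reads counted on *mt-Ta*, *mt-Tn* and *mt-Tc* may come from either strand.

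**Figure D5:**
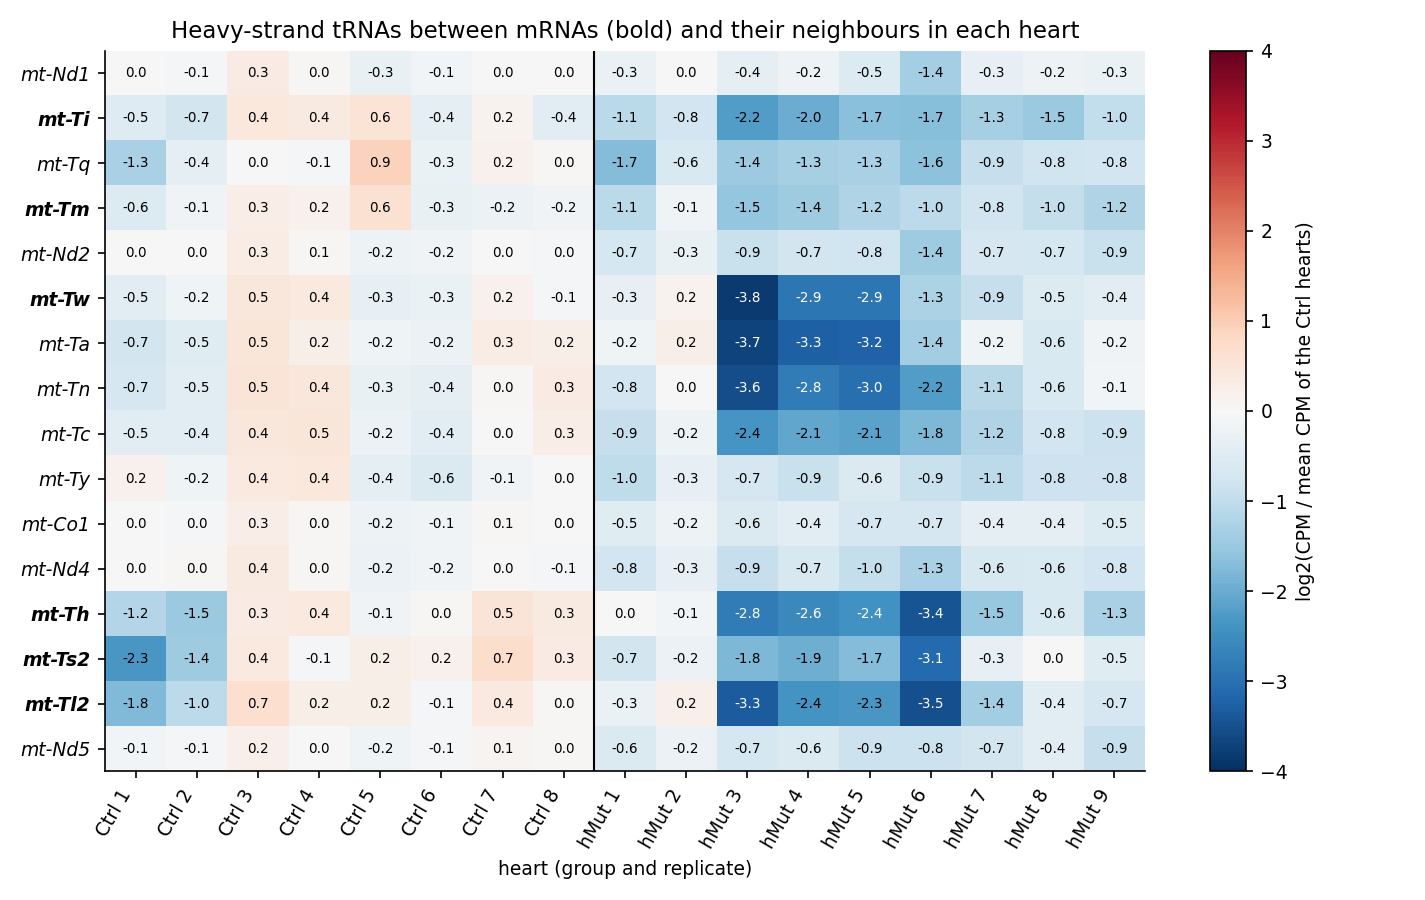
Log2 of CPM over the mean of the Ctrl hearts for tRNA genes between mRNAs (bold), the light-strand tRNAs beside them and the flanking mRNAs (vertical, map order) in each heart (horizontal). Blue is below the Ctrl mean and red above. hMut replicates 3, 4 and 5 are darkest from *mt-Tw* to *mt-Tc* and replicate 6 from *mt-Th* to *mt-Tl2*, while *mt-Co1* and *mt-Nd5* stay between 0 and -1 in every hMut heart.

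Of the 12 other mitochondrial tRNA genes, 9 could be tested. *mt-Tq*, *mt-Tc*, *mt-Ty* and *mt-Te* fell, *mt-Tt* and *mt-Tp* rose, and the median log2 fold change was -0.79. Of the 2 rRNAs, 1 fell (*mt-Rnr2*, -0.57, adjusted p = 0.0148, edgeR). *mt-Tc*, the cysteine tRNA gene, fell by 1.20 on the log2 scale (SE 0.27, adjusted p = 0.0169, edgeR), and *mt-Tn*, for asparagine, had a log2 fold change of -1.10 (SE 0.42, adjusted p = 0.122, edgeR). *mt-Tl1*, a heavy-strand tRNA gene between an rRNA and *mt-Nd1* with no spacer on either side, had 1497 to 2824 counts per library. *mt-Tv*, a heavy-strand tRNA gene between the rRNAs that also has no spacer, had 0 to 6 counts per library in Ctrl and 3 to 19 in hMut hearts.

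Of 29 nuclear genes for cutting, CCA addition and base modification, 2 rose, 0 fell and 27 did not pass in edgeR, where 3.48% of all genes tested rose and 1.14% fell. The median log2 fold change of the list was -0.03. At an unadjusted p under 0.05, 5 were higher and 2 lower, while DESeq2 called 3 higher and 1 lower and limma-voom 4 and 1. The pair that rose were *Pus1*, a pseudouridine synthase (14.3 ± 1.09 CPM in Ctrl, n = 8, and 17.4 ± 1.62 in hMut, n = 9, log2 fold change 0.28, adjusted p = 0.0170, edgeR), and *Qtrt1*, a subunit of the enzyme that places queuine in tRNAs (4.57 ± 0.537 and 5.67 ± 0.534 CPM, 0.31, adjusted p = 0.0404, edgeR). *Yrdc* and *Osgepl1*, which act in threonylcarbamoylation of tRNAs, had log2 fold changes of 0.20 (adjusted p = 0.0529) and -0.29 (adjusted p = 0.0823). This count of 2 dropped to 1 without any of Ctrl replicates 1, 2, 3, 4, 5, 7 or 8 or hMut replicates 3, 4, 5, 7 or 9, and was 5 without hMut replicate 2. The 29 genes include both cytosolic and mitochondrial enzymes.

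Of the 10 synthetases that load the amino acids of these tRNAs in mitochondria, 1 rose and 9 did not pass in edgeR, with a median log2 fold change of -0.05. At an unadjusted p under 0.05, 1 was higher and 2 lower, while DESeq2 and limma-voom each called 1 higher and 1 lower. The gene that rose was *Gars*, the glycyl-tRNA synthetase of both cytosol and mitochondria. Its level was 60.3 ± 2.54 CPM in Ctrl and 110 ± 27.1 CPM in hMut hearts, with all 9 hMut hearts above every Ctrl heart (log2 fold change 0.87, SE 0.12, adjusted p = 0.000483, edgeR). How many of all genes tested separate upward in this way was not counted. *Hars2*, *Iars2* and *Mars2*, the mitochondrial synthetases for histidine, isoleucine and methionine, had log2 fold changes of -0.21 (adjusted p = 0.0807), -0.15 (0.186) and -0.11 (0.385) in edgeR. The count of edgeR calls was 2 without hMut replicate 1 or hMut replicate 2.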

How the data were processed

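The authors prepared libraries from poly(A)-selected RNA of whole hearts, cleaned the reads by fastp, mapped them by HISAT2 2.2.1 to GRCm39 and summed them per gene by featureCounts 2.0.6, per the submitters' processing notes. The values deposited are counts, not normalized, in 1 table of 17 libraries. The strand setting, the treatment of reads with several placements and the annotation release are not given in the sources used here. Reads that match both mtDNA and a nuclear copy may be split or dropped.

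Genes that passed filterByExpr were tested with edgeR's quasi-likelihood test (version 4.0.16, R 4.3.3) after TMM normalization, with group as the only term and Benjamini-Hochberg adjustment over all 16195 genes at a threshold of 0.05. The second scale used the summed counts of the 12 heavy-strand mRNAs as library size. SE is the size of the log2 fold change over the square root of the F statistic. CPM are counts scaled by the TMM-normalized library size, and CPM per kilobase used the full gene length. Each library is a separate heart sample per the labels. The 136 pairs of libraries had Spearman correlations of 0.950 to 0.995 across genes and none was a copy. Replicate numbers do not pair the groups. The floor of 3 counts covers counting error only.

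In a trial on simulated counts of the comparison of hMut with Ctrl (16195 genes), the test recovered 89.7% of the genes changed by 1 on the log2 scale and 97.1% of those changed by 2, and called 0 genes when none was changed. In the run with changes it also called 8 of 15840 unchanged genes. The changed genes were drawn at random from all genes tested, so these shares do not give the recovery for the tRNA genes. All 37 mtDNA genes have the same coordinates in GENCODE M39 of GRCm39, and BLAST 2.17.0+ was used to find nuclear copies.

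The genes and lists were chosen with earlier results of these data known. Named were all 10 tRNA genes, the genes adjacent to them, at most 4 genes of each other list by adjusted p, the 5 genes most like the 10 summed, and *Polg*. *mt-Tl1*, *mt-Tv*, *mt-Cytb*, *Myh1* and *Myh4* fall outside this rule and were picked with their values known. *Kars1* and *Gars1* are listed in the table under the older symbols *Kars* and *Gars*. Alternatives were RLE, upper-quartile and nuclear-only TMM factors, library totals, DESeq2 1.42.0, limma-voom (limma 3.58.1), 2 other filters, other sums of mRNAs, the replicate block, hMut replicates 6 and 9 left out and each library left out. Every limma-voom result here used a quality weight per library. The sum over mRNAs outside the nuclear copy was chosen after seeing the data.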

Additional observations from a re-analysis of the deposited data

Results flagged for a closer look

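In each of the 10 genes and both groups, the highest and the lowest heart were compared with the rest of the group (20 tests in all, of which chance flags about 5%), and 3 values stood apart. *mt-Tm* in hMut replicate 2 was 17.5 CPM (635 counts), and the next hMut heart had 11.2 CPM. *mt-Tr* in the same heart was 0.963 CPM (35 counts), and the next had 0.454 CPM. *mt-Tg* in Ctrl replicate 2 was 0.141 CPM, which rests on 5 counts, and the next had 0.0317 CPM. No explanation was tested.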

How the results depend on the processing

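*mt-Ti* and *mt-Tm* passed as lower under all 10 alternatives and without each of the 17 libraries, with log2 fold changes of -1.50 to -1.24 and -1.13 to -0.83. The number of the 10 genes that passed as lower was 2 to 3 without 1 library and 5 with limma-voom, and none passed as higher. Over all genes the count of 749 (75.3% higher) became 5672 with library totals alone (97.8% higher, and a shift of the median of all genes to 0.17), 1548 with DESeq2 (65.1% higher), 2081 with limma-voom (56.5% higher), 463 without a filter (85.3% higher) and 431 without hMut replicates 6 and 9. Without 1 library it lay between 395 (hMut replicate 5) and 1792 (hMut replicate 2), and it moved by over 1.5 times without Ctrl replicates 1, 2, 5, 6, 7 or 8 or hMut replicates 1, 2, 5, 6, 7 or 9.

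The tRNA maturation list had 1 call with upper-quartile factors, without a filter and without hMut replicates 6 and 9, 4 with DESeq2, 5 with limma-voom, 11 with library totals and 1 to 5 without 1 library. The synthetases had 2 calls with DESeq2 or limma-voom (1 higher and 1 lower in each), 4 with library totals and 1 to 2 without 1 library.

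Relative to the heavy-strand mRNAs, the count of lower genes was 1 with the geometric mean or with mRNAs outside the nuclear copy, both without *mt-Tm*, and 1 to 3 without 1 library. The count of higher genes was 2 without a filter, which adds *mt-Tk*, and 0 without hMut replicates 6 and 9. It was 0 to 1 without 1 library, because *mt-Tr* dropped under the filter on low counts without hMut replicate 2, 4, 5, 6, 7 or 9. *mt-Ts2* turned from -0.36 to 0.002 with limma-voom (adjusted p = 0.996). Other causes were not tested.

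With the replicate number as a block, over the 8 shared numbers, 185 genes passed (86.5% higher), 0 rRNAs, 0 tRNA maturation genes and 0 of the 10 genes as higher relative to the mRNAs. Same-numbered libraries deviated with correlations of -0.225 to 0.339, 1 of 8 above 0.1, and 1 Ctrl library correlated best with its own number, so the numbers do not pair the hearts. Depth left *mt-Td*, *mt-Tk* and *mt-Tg* untested, and *mt-Tr* rests on 4 to 35 counts per library.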

Other observations

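*mt-Ts1*, the light-strand serine tRNA gene that ends 3 bases before *mt-Td*, did not pass the filter on low counts. It had 0 to 7 counts per library in Ctrl hearts and 4 to 202 in 8 of the hMut hearts, and 25935 in hMut replicate 7. In that heart *mt-Td* had 5 counts. The gene lies inside the nuclear copy on chromosome 1.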
